A study of Rattus norvegicus with 6 samples.

Results

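The matrix metalloproteinases and their tissue inhibitors were followed across immortal and HRAS-transformed rat fibroblasts, without and with a drug that removes DNA methylation. The members were all probe sets that map to exactly 1 gene and whose symbol is Mmp2, Mmp3, Mmp9, Mmp10, Mmp11, Mmp12, Mmp13, Mmp14, Timp1 or Timp2. All 10 genes were found, of 2890 genes with such a probe set, with 11 probe sets (2 for Timp1, 1 for each other gene) among 4818 tested, so every member gene had a probe set in the table, and no filter on low values was applied here. The sources used here do not say how the probe sets of the table were chosen, so counts of measured genes and shares over all probe sets hold for this table.

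208F is an immortal line of rat fibroblasts, and FE8 is a line of rat fibroblasts that carries the transforming HRAS oncogene. Each line was measured without treatment (n = 1 array) and after 96 h in 0.3 µM 5-aza-2'-deoxycytidine (n = 2 arrays). The drug is a cytidine analogue that is built into DNA and traps DNA methyltransferases, so that methylation is lost as cells divide. Each line stands alone for its state, so the effect of the oncogene and any other difference between 208F and FE8 cannot be told apart, and no probe set of Hras was analysed here. The labels do not say whether duplicates came from separate cultures, so p-values measure only the spread between these arrays, which may be technical.

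Matrix metalloproteinases are zinc enzymes that cut the proteins of the extracellular matrix and are made as inactive proenzymes. Collagenases open fibrillar collagen, gelatinases digest the loosened chains and basement membrane collagen, and stromelysins cut many matrix proteins and can activate other proenzymes. TIMP proteins bind the active site and block it, and Timp2 together with the membrane enzyme Mmp14 also brings pro-Mmp2 to the cell surface for activation. In fibroblasts several of these genes are switched on by growth factors and oncogenes through the AP-1 transcription factors.

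The measured RNA is signal per probe set on the Affymetrix rat array, in arbitrary units on a linear scale. Median signal per array lay between 354 and 422. The table holds no detection calls. The 3 probe sets for bacterial and yeast genes (DapX and YEL024w) read from 2 to 96, which gives a range for signal without a rat target. Differences below are of log2(signal + 64) with the standard error of a limma fit over all 4818 probe sets, and the pseudocount of 64 holds down differences of dim probe sets. A probe set was called at an adjusted p under 0.05 (limma, Benjamini-Hochberg over all probe sets), and the number of arrays limits the precision. Both untreated arrays were run in a session of their own on chip lot 1, and the treated arrays later on lots 2 and 3, so a drug effect and a session effect cannot be told apart. Treated 208F replicate 1 was on lot 2, and the other treated arrays were on lot 3 and scanned on a later day. The treated 208F duplicates thus cross lots and the treated FE8 duplicates do not. The part of this in the treated line comparison was not tested. Ratios of 5' to 3' signal for beta-actin ranged from 0.456 to 0.824 in 208F, highest without the drug, and from 0.351 to 0.405 in FE8. For GAPDH the ratio was 0.916 without and 1.132 and 1.01 with the drug in 208F, and 0.691 without and 1.126 and 1.073 with it in FE8, so it was higher on the treated arrays of both lines. The part of these ratios in the results was not tested.

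The fibroblast label was checked against 12 markers, of which 9 were measured with 21 probe sets. In 208F their summed signal was 159448 without and 96198 to 120234 with the drug, and in FE8 it was 63374 without and 45300 to 45466 with it. The 11 probe sets lower in untreated FE8 and the 10 lower in treated FE8 were all of Col1a1, Col1a2, Col3a1 and Fn1, genes of collagen and fibronectin. Over all probe sets, 2.82% were lower in untreated and 3.65% in treated FE8. With the drug 4 of the 21 were lower in 208F and 1 in FE8, and none was higher, beside 1.60% and 3.09% of all probe sets lower. The probe sets of the other measured markers, Vim, Thy1, Pdgfra, S100a4 and P4hb, were called in no comparison. The part of these markers in the line differences was not tested, and in bulk RNA fewer cells of a type and less RNA per cell cannot be told apart. Endothelial and mast cell lists were each covered by 1 gene, at 2 to 84 and 1 to 47.

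The collagenase Mmp13, the macrophage elastase Mmp12 and the stromelysins Mmp3 and Mmp10 are neighbours on rat chromosome 8. There, 10 metalloproteinase genes follow each other among the protein-coding genes of assembly GRCr8, in the order Mmp13, Mmp12, Mmp1b, Mmp3, Mmp1, Mmp10, Mmp8, Mmp27, Mmp20 and Mmp7. Of these 10, 5 had a probe set. Sequence before the annotated start was matched by symbol in a RefSeq table of GRCr8 for 7 of the 10 members, and Mmp2, Mmp9 and Mmp14 were not matched. The 250 bases before the start are shown for the members of the chromosome 8 row, because 3 of the 4 had the largest line differences of the family. All 4 lie on the + strand of GRCr8: Mmp13 at chr8:12782579-12782828, Mmp3 at chr8:12925031-12925280, Mmp10 at chr8:12974457-12974706 and Mmp12 at chr8:12866402-12866651. Capitals mark the AP-1 motif TGANTCA, which reads the same on both strands.
Mmp13: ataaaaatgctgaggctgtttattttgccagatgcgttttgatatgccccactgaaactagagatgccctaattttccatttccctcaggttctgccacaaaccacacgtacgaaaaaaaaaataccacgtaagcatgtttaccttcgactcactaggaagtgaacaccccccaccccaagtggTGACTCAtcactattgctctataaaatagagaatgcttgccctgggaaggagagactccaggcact
Mmp3: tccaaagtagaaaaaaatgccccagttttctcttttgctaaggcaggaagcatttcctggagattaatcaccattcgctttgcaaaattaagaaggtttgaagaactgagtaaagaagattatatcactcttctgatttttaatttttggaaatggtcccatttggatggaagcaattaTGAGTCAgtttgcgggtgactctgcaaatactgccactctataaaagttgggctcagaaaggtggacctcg
Mmp10: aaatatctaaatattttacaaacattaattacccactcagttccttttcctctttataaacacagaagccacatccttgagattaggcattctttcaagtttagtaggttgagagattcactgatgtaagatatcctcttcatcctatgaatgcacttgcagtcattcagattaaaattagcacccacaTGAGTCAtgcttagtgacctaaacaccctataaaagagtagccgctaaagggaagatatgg
Mmp12: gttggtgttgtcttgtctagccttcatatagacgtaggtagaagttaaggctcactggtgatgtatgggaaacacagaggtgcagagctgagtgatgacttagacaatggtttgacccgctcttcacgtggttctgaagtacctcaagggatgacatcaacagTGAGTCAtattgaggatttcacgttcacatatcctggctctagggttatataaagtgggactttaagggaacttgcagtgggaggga

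Each of these 4 promoters held 1 AP-1 match, with its first base 66 bases before the start in Mmp13, 71 in Mmp3, 61 in Mmp10 and 87 in Mmp12. The letters were TGACTCA in Mmp13 and TGAGTCA in the other 3. A TATAAA match on the sense strand lay between the AP-1 match and the start in each, 47, 32, 33 and 39 bases before the start in the same order, and did not overlap it. Of 33465 rat promoters of this length, 6.34% held TGANTCA and 12.9% held TATAAA on either strand, and 1.02% held both. The ETS motif GGAAG, searched on both strands, was present in Timp1 (4 matches), Mmp13 (2), Mmp3 (2), Mmp11 (2) and Mmp10 (1), not in Mmp12 or Timp2, and in 63.3% of all promoters. None of the 3 other promoters, those of Mmp11, Timp1 and Timp2, held TGANTCA or TATAAA in this window. Only these letters were searched, and variants of either motif were not counted. A match describes letters and is not a measured binding site.

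The inhibitor promoters are shown for their content of CG, the dinucleotide at which mammalian DNA is methylated, with each CG in capitals. Both lie on the - strand of GRCr8, Timp1 at chrX:3771123-3771372 and Timp2 at chr10:104089215-104089464.
Timp1: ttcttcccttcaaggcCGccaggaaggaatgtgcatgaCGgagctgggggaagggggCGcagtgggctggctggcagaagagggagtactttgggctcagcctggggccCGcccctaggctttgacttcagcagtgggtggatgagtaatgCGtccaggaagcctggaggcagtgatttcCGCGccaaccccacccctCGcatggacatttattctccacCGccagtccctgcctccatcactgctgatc
Timp2: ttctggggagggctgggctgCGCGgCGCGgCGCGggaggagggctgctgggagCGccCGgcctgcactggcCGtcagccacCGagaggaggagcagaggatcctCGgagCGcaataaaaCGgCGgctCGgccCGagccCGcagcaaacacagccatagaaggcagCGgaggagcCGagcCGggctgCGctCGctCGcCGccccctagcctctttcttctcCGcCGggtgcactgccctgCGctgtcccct

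Timp2 held 27 CG in 250 bases and Timp1 held 9, against a median of 5 over all promoters. The count of Timp1 lay within the quartiles of 2 and 15, and that of Timp2 above them. On chromosome 8 the number was 5 in Mmp13, at that median, 4 in Mmp12 and 3 in Mmp3, within the quartiles of 2 and 15, and 1 in Mmp10, below them. Mmp11, a stromelysin-like enzyme of stromal cells, had 16. Methylation itself was not analysed here.

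**Figure D1:**
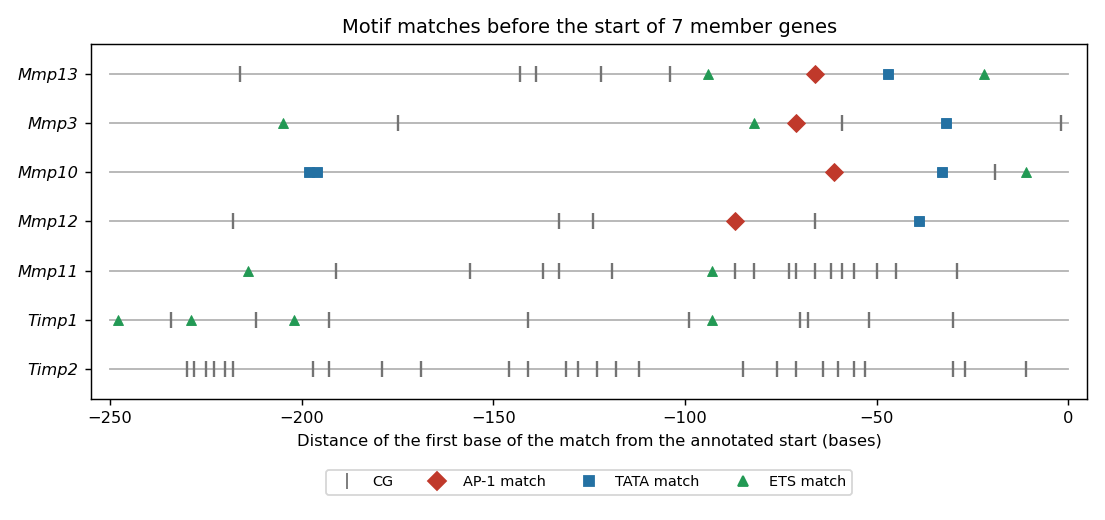
Positions of motif matches in the 250 bases before the annotated start of 7 member genes; the horizontal axis is the distance in bases of the first base of each match from the start, and matches on either strand are drawn. The AP-1 matches of Mmp13, Mmp3, Mmp10 and Mmp12 lie 61 to 87 bases before the start, and Timp2 carries the most CG, 27.

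The first comparison asked how the family differs between the transformed and the immortal line without the drug. Of the 11 member probe sets, 3 were higher in FE8 (Mmp3, Mmp10 and Mmp13), 2 were lower (Mmp2 and Timp2) and 6 did not pass, where 5.92% of all 4818 probe sets were called in either direction, 3.09% higher and 2.82% lower. The members' median log2 difference was -0.38, against 0.02 over all probe sets. With 1 array on each side, the spread in this comparison is taken from the treated duplicates. The same comparison under the drug, with 2 arrays on each side and no array in common with the first, had 4 member probe sets higher in FE8 (the same 3 enzymes and 1 of the 2 Timp1 probe sets), the same 2 lower and 5 that did not pass. There 7.08% of all probe sets were called, 3.42% higher and 3.65% lower, and the median was 0.91 for the members and 0.00 for all.

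Mmp10, the stromelysin that is scarce in resting fibroblasts, read 14 without and 22 and 63 with the drug in 208F, and 12849 without and 17685 and 17769 with it in FE8. The 208F arrays lay within the range of the bacterial and yeast probe sets and all FE8 arrays far above it, with no overlap. The difference was 7.37 ± 0.35 untreated (SE; adjusted p = 1.6e-06) and 7.41 ± 0.25 treated (adjusted p = 3.6e-08). Because the 208F signals lie in that range, the size depends on the pseudocount: it was 8.74 and 8.34 with a pseudocount of 16, and 5.60 and 5.92 with one 4 times as large as 64, with both calls kept.

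Mmp3, the broad-acting stromelysin, read 68 without and 120 and 129 with the drug in 208F, and 6573 without and 7737 and 6887 with it in FE8. Every FE8 array was above every 208F array, and the FE8 arrays lay close together with or without the drug. The differences were 5.65 ± 0.32 (adjusted p = 2.4e-06) and 5.29 ± 0.23 (adjusted p = 1.9e-07). Mmp3 and Mmp10 are related in sequence, and whether either probe set also takes up the other's RNA was not tested.

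Mmp13, the main interstitial collagenase of rodents, read 222 without and 140 and 164 with the drug in 208F, and 14268 without and 6859 and 8014 with it in FE8. The lines did not overlap, and within each line the untreated array was the highest. The line difference was 5.65 ± 0.32 untreated (adjusted p = 2.4e-06) and 5.12 ± 0.22 treated (adjusted p = 1.9e-07). Without each treated array in turn the treated difference was 5.20 to 5.37 for Mmp3, 7.13 to 7.69 for Mmp10 and 5.00 to 5.23 for Mmp13. For Mmp2 it was -1.89 to -1.75. The untreated differences use no treated array, so these fits changed only their spread, and neither untreated array could be left out.

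**Figure D2:**
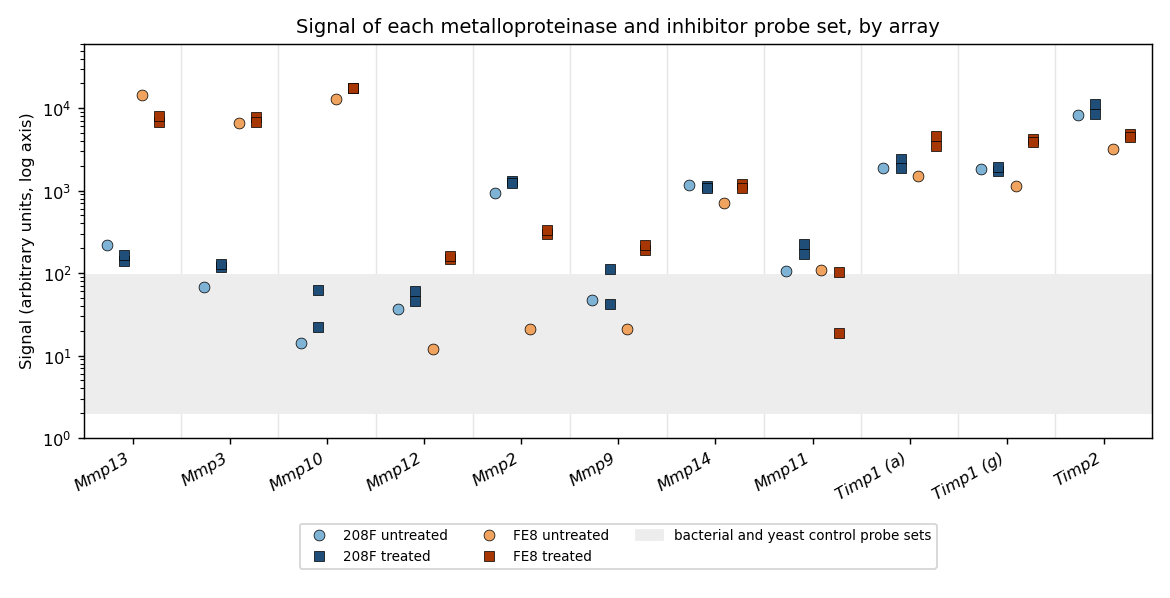
Signal of each of the 11 member probe sets on each of the 6 arrays, in arbitrary units on a log axis, with circles for untreated and squares for treated arrays; (a) and (g) are the Timp1 probe sets rc_AI169327_at and rc_AI169327_g_at, and the grey band spans the control probe sets for bacterial and yeast genes (2 to 96). For Mmp13, Mmp3 and Mmp10 all FE8 arrays lie above all 208F arrays, while for Mmp2 and Timp2 all 208F arrays lie above all FE8 arrays. Levels of different probe sets are not comparable.

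The other measured genes of the row on chromosome 8, Mmp12 and Mmp7, were called in neither line comparison. Mmp12, an elastase best known from macrophages, read 37 in untreated 208F and 12 in untreated FE8, a difference of -0.41 ± 0.45 (adjusted p = 0.82). Under the drug it read 61 and 46 in 208F and 150 and 162 in FE8, which do not overlap, at 0.91 ± 0.32 (adjusted p = 0.14). The epithelial matrilysin Mmp7, at the far end of the row and not a member, read 69 to 214 over the 6 arrays and differed by -0.23 ± 0.55 untreated (adjusted p = 0.95) and 0.16 ± 0.39 treated (adjusted p = 0.95). The dynein gene Dync2h1, the nearest measured protein-coding neighbour before Mmp13, was at 0.25 ± 0.47 (adjusted p = 0.92) and 0.17 ± 0.33 (adjusted p = 0.93). It read 45 to 105 over the 6 arrays, within the range of the bacterial and yeast probe sets on all but FE8 treated replicate 1.

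**Figure D3:**
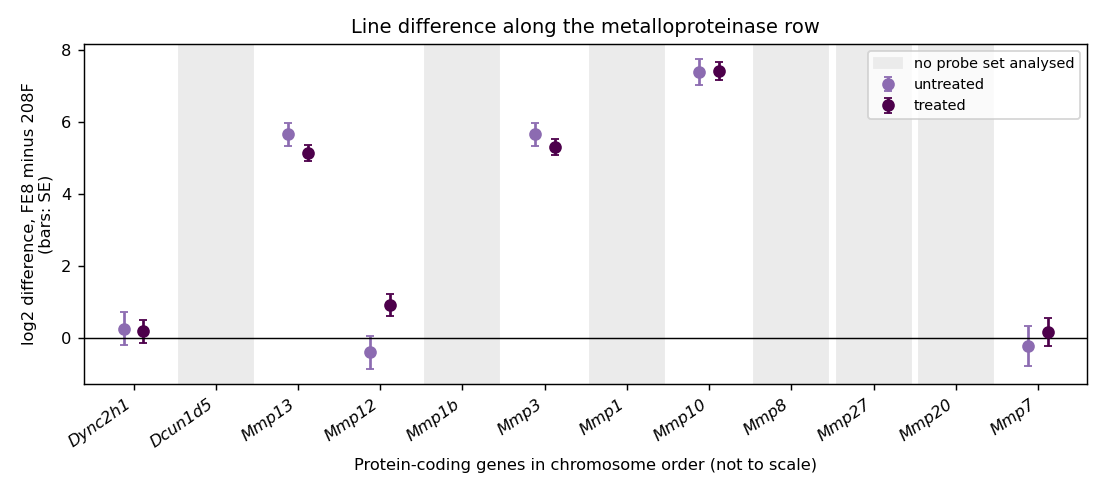
Log2 difference between the lines (FE8 minus 208F, bars are standard errors) for the protein-coding genes from Dync2h1 to Mmp7 in chromosome order, not to scale; grey columns are genes with no probe set analysed. Mmp13, Mmp3 and Mmp10 lie between 5.12 and 7.41, and Mmp12, between Mmp13 and Mmp3, lies at -0.41 untreated and 0.91 treated.

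The gelatinase Mmp2 and its partner Timp2 were lower in FE8. Mmp2 read 927 without and 1319 and 1234 with the drug in 208F, and 21 without and 298 and 334 with it in FE8. The lines did not overlap, and untreated FE8 alone lay within the range of the bacterial and yeast probe sets. The difference was -3.54 ± 0.37 untreated (adjusted p = 1.7e-04) and -1.82 ± 0.26 treated (adjusted p = 0.0011). The untreated difference was -4.67 with a pseudocount of 16 and -2.09 with the larger one, and was called with both.

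Timp2 (probe set S72594_s_at, whose suffix marks a possible match to more than 1 transcript) read 8329 without and 11354 and 8570 with the drug in 208F, and 3175 without and 4818 and 4507 with it in FE8. All 208F arrays were above all FE8 arrays. The difference was -1.37 ± 0.33 untreated (adjusted p = 0.032) and -1.07 ± 0.23 treated (adjusted p = 0.016). Both Timp2 calls were lost in limma after each array was centred on its median (adjusted p = 0.091 and 0.053) and without the intensity trend (0.096 and 0.052). Neither was kept without FE8 treated replicate 1 or 2, in fits whose spread came from the treated 208F duplicates alone. There the untreated difference, which uses no treated array, stayed at -1.37. The treated one was -1.12 without replicate 1 and -1.02 without replicate 2.

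Mmp14, the membrane-type enzyme that activates pro-Mmp2, read 1169 without and 1149 and 1090 with the drug in 208F, and 708 without and 1196 and 1090 with it in FE8. Untreated FE8 was the lowest array and the other 5 lay within 1090 to 1196. The difference was -0.68 ± 0.32 untreated (95% interval -1.37 to 0.02, adjusted p = 0.34) and 0.03 ± 0.22 treated (interval -0.47 to 0.52, adjusted p = 0.98).

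Mmp9, the gelatinase of inflammatory and invading cells, read 47 without and 42 and 112 with the drug in 208F, and 21 without and 190 and 222 with it in FE8. All but the treated FE8 arrays and 1 treated 208F array lay within the range of the bacterial and yeast probe sets. The difference was -0.39 ± 0.50 untreated (adjusted p = 0.86) and 0.98 ± 0.35 treated (adjusted p = 0.15). The treated difference was 0.61 to 1.35 without each treated array in turn, largest without 208F treated replicate 2. It passed only there, with the spread taken from the treated FE8 duplicates alone.

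Mmp11 read 105 without and 171 and 226 with the drug in 208F, and 108 without and 103 and 19 with it in FE8. The untreated arrays were alike and the treated FE8 duplicates lay apart from each other. The difference was 0.03 ± 0.54 untreated (adjusted p = 1) and -1.15 ± 0.38 treated (adjusted p = 0.12).

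Timp1, the inducible inhibitor, was measured by a pair of probe sets drawn from the same cDNA sequence, which are not independent. Probe set rc_AI169327_g_at read 1815 without and 1718 and 1947 with the drug in 208F, and 1127 without and 4179 and 3939 with it in FE8. Probe set rc_AI169327_at read 1866, then 2416 and 1881, then 1520, and then 4625 and 3427 in the same order. Untreated FE8 was the lowest array and the treated FE8 arrays were the highest with both.

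Without the drug the Timp1 line difference was -0.66 ± 0.30 by rc_AI169327_g_at (adjusted p = 0.33) and -0.28 ± 0.34 by rc_AI169327_at (adjusted p = 0.84). Under the drug it was 1.12 ± 0.21 (adjusted p = 0.0075) and 0.88 ± 0.24 (adjusted p = 0.052). Without each treated array in turn the first was 1.04 to 1.21 and the second 0.67 to 1.09. The first call was lost without either treated FE8 array, and the second probe set passed without either treated 208F array. In each such fit the spread came from the treated duplicates of the other line alone. The fit without 208F treated replicate 1 holds treated arrays of lot 3 only.

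**Figure D4:**
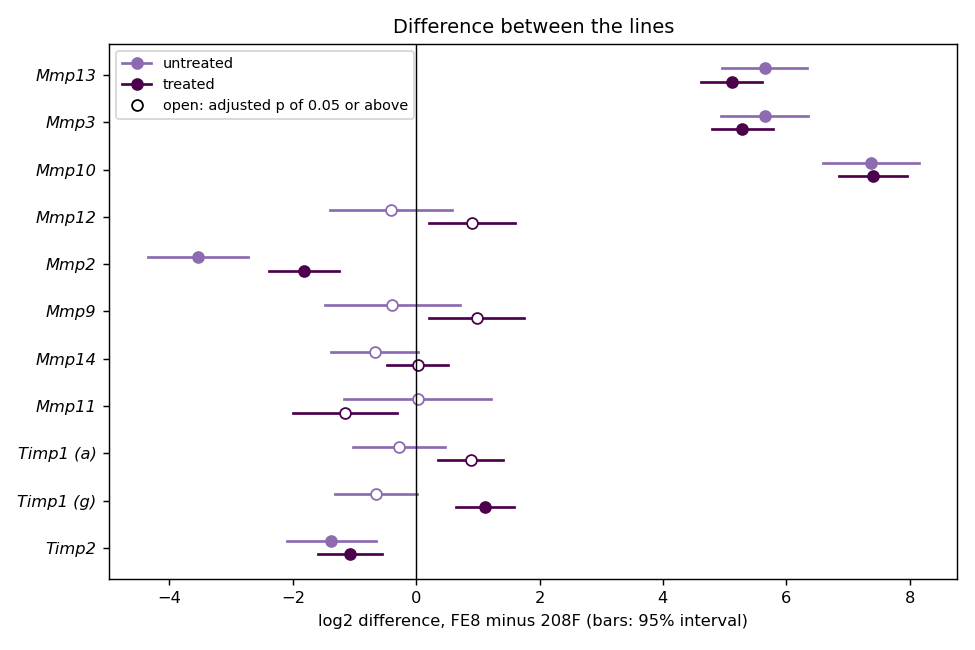
Log2 difference between the lines (FE8 minus 208F) for the 11 member probe sets, untreated (1 array against 1) and treated (2 against 2); points are estimates, bars 95% intervals, and filled points have an adjusted p under 0.05. Mmp13, Mmp3 and Mmp10 lie above 5 in both, and Mmp2 and Timp2 lie below 0 in both. Mmp9, Mmp12, Timp1 and Mmp14 lie below 0 untreated and above 0 treated, Mmp14 only just, at 0.03.

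A further question was what the drug did within a line, with 2 treated arrays against 1 untreated. In 208F none of the 11 member probe sets passed in limma, and none had an unadjusted p under 0.05, where 5.19% of all probe sets were called, 3.59% higher and 1.60% lower. The members' median log2 difference was 0.24 and that of all probe sets 0.11. The estimates ran from -0.41 ± 0.27 for Mmp13 (adjusted p = 0.51) to 0.63 ± 0.47 for Mmp11 (adjusted p = 0.57). For Mmp10 the 95% interval was -0.25 to 1.10 and for Mmp3 it was -0.10 to 1.12.

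In FE8 5 member probe sets of 4 genes rose, none fell and 6 did not pass, where 8.16% of all probe sets were called, 5.06% higher and 3.09% lower. They were Mmp2, Mmp9, Mmp12 and both probe sets of Timp1. The median was 0.64 for the members and 0.08 for all. Without FE8 treated replicate 1 the estimates were 2.23 for Mmp2, 1.75 for Mmp9 and 1.57 for Mmp12. Without replicate 2 they were 2.09, 1.58 and 1.49. For Timp1 these fits gave 1.75 and 1.83 by rc_AI169327_g_at, and 1.14 and 1.57 by rc_AI169327_at. Most of the 5 calls were lost in these fits, whose spread came from the treated 208F duplicates alone. The summed signal of 3 epithelial genes (Krt8, Krt18 and Epcam, of 7 listed) also moved with the drug. It went from 188 to between 3118 and 3553 in 208F and from 162 to between 4495 and 4522 in FE8. Most of the treated sums was Krt8, at 3250 and 2825 in 208F and 3838 and 4077 in FE8. In 208F 2 of 4 probe sets were up and in FE8 3, beside 3.59% and 5.06% of all probe sets. Epcam was not called in 208F (adjusted p = 0.32). Macrophage and neutrophil markers were covered by 1 of 10 genes, Cd14, whose 2 probe sets summed to 518 without and 611 to 802 with the drug in 208F, to 311 without and 420 to 723 with it in FE8, and were not called. The GAPDH ratio of 5' to 3' signal also went from 0.691 to 1.126 and 1.073 in FE8. The part of these in the results was not tested.

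Mmp2 rose in FE8 by 2.16 ± 0.32 (adjusted p = 0.002), from 21 to 298 and 334. Both treated FE8 arrays still lay below the lowest 208F array, 927. The size was 3.16 with a pseudocount of 16 and 1.05 with the larger one, and was called with both. Without FE8 treated replicate 2 the value was 2.09 and was not called, in a fit whose spread came from the treated 208F duplicates alone.

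Timp1 rose in FE8 by 1.79 ± 0.26 (rc_AI169327_g_at, adjusted p = 0.0019) and 1.35 ± 0.29 (rc_AI169327_at, adjusted p = 0.017), and both treated arrays lay above the untreated FE8 and all 208F arrays. Without the intensity trend the second of these was not called (adjusted p = 0.057). Mmp9 rose by 1.66 ± 0.43 (adjusted p = 0.038), from 21 to 190 and 222, and Mmp12 by 1.53 ± 0.39 (adjusted p = 0.035), from 12 to 150 and 162. These 2 started within the range of the bacterial and yeast probe sets. With a pseudocount of 16 they were at 2.58 and 2.62 and with the larger one at 0.74 and 0.62, called in each case, and after quantile normalization neither passed (1.33, adjusted p = 0.1, and 1.26, adjusted p = 0.08).

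The stromelysins and the collagenase, which differ most between the lines, were not called for the drug in FE8. In FE8 Mmp10 was at 0.46 ± 0.31 (interval -0.21 to 1.14, adjusted p = 0.45) and Mmp3 at 0.15 ± 0.28 (interval -0.46 to 0.76, adjusted p = 0.82). Mmp13 was at -0.94 ± 0.27 (adjusted p = 0.06), with both treated arrays below the untreated one, and was not called without FE8 treated replicate 1 (-0.83, adjusted p = 0.39) or 2 (-1.05, adjusted p = 0.21). It passed without 208F treated replicate 1 or 2 (adjusted p = 0.0017 for both), where its estimate stays at -0.94, the spread alone is estimated anew, and calls over all probe sets rose from 393 to 783 and 779. Mmp14 was at 0.64 ± 0.28 (adjusted p = 0.2), Timp2 at 0.54 ± 0.29 (adjusted p = 0.31) and Mmp11 at -0.55 ± 0.47 (adjusted p = 0.56).

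**Figure D5:**
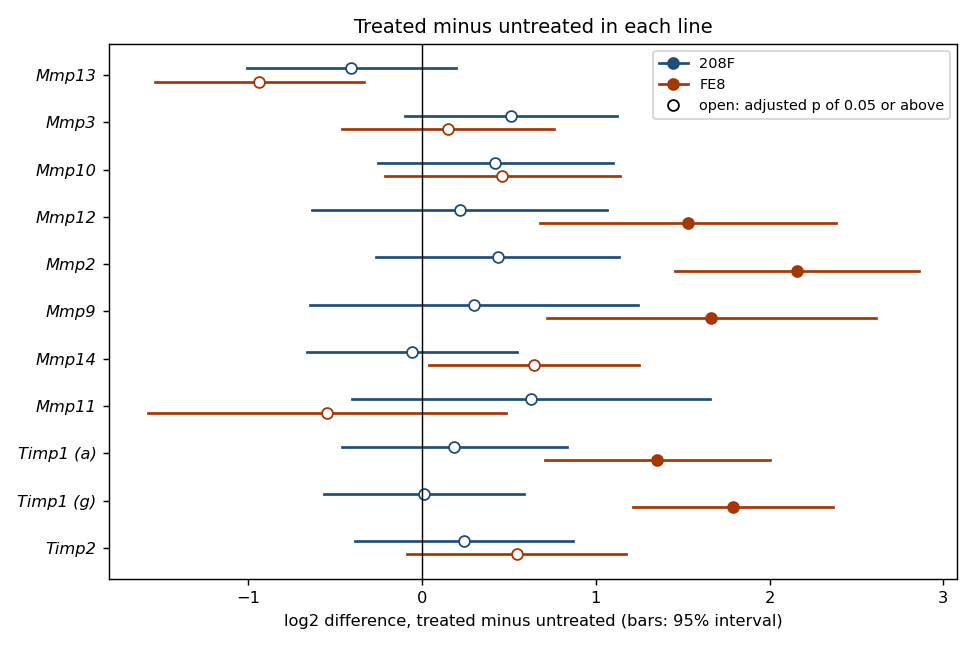
Log2 difference between treated (2 arrays) and untreated (1 array) cells in 208F and in FE8 for the 11 member probe sets; points are estimates, bars 95% intervals, and filled points have an adjusted p under 0.05. In 208F no point is filled, and in FE8 the filled points are Mmp12, Mmp2, Mmp9 and both Timp1 probe sets, between 1.35 and 2.16.

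Whether the drug effect itself differed between the lines was tested as an interaction, and none of the 11 member probe sets passed in limma (5 had an unadjusted p under 0.05), where 0.0623% of all probe sets, 3 in number, were called (0.0208% higher and 0.0415% lower). The nearest was Timp1 by rc_AI169327_g_at, with a drug effect larger in FE8 by 1.78 ± 0.37 (adjusted p = 0.089). It was 1.69 without 208F treated replicate 1 and 1.87 without replicate 2. Without FE8 treated replicate 1 it was 1.74, and without replicate 2 it was 1.82. It passed only in the fits that left out a 208F array. There the spread came from the treated FE8 duplicates alone, which share a lot and a scan day. Mmp2 was at 1.72 ± 0.45 (adjusted p = 0.2), Mmp9 at 1.37 ± 0.61 (adjusted p = 0.63) and Mmp12 at 1.32 ± 0.55 (adjusted p = 0.58). For Mmp10 the difference was 0.04 ± 0.43 (interval -0.91 to 0.99), for Mmp3 -0.36 ± 0.39 and for Mmp13 -0.53 ± 0.39. Mmp14 was at 0.70 ± 0.39 (adjusted p = 0.81) and Mmp11 at -1.17 ± 0.66 (adjusted p = 0.83). On the treated arrays Mmp14 lay below its untreated level in 208F and above it in FE8, and Mmp11 the other way round. Some of these steps were small: Mmp14 in 208F went from 1169 to 1149 and 1090, and Mmp11 in FE8 from 108 to 103 and 19. Neither gene was called for the drug in either line.

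Among AP-1 and ETS factors, which are known to act on protease promoters, 8 of 16 listed genes were measured with 12 probe sets. Of these, 1 was higher in FE8 in each line comparison and none was lower, beside 5.92% and 7.08% of all probe sets called, and the medians were 0.11 untreated and 0.45 treated. It was Fosl1, the FRA-1 subunit of AP-1, which read 387 without and 285 and 489 with the drug in 208F, and 4140 without and 1706 and 1890 with it in FE8. The Fosl1 line difference was 3.22 ± 0.38 untreated (adjusted p = 4.1e-04) and 2.08 ± 0.27 treated (adjusted p = 5.5e-04). Like Mmp13, Fosl1 was highest in untreated FE8, and its drug effect there was -1.18 ± 0.33 (adjusted p = 0.051). Under the drug 2 probe sets of this list rose in 208F and 3 in FE8, namely Atf3 and Junb, AP-1 family genes, with Atf3 higher by 1.80 ± 0.33 in 208F (adjusted p = 0.0096) and 1.56 ± 0.33 in FE8 (adjusted p = 0.015). Of all probe sets, 3.59% rose in 208F and 5.06% in FE8.

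Of the substrates in the matrix, 13 of 22 listed genes were measured with 26 probe sets. Over all probe sets, 2.82% were lower and 3.09% higher in untreated FE8, and 3.65% lower and 3.42% higher in treated FE8. Of the 26, 18 were lower and 1 was higher in untreated FE8, with a median of -2.19. In treated FE8 14 were lower and 1 higher, with a median of -2.17. The lower ones included the collagen chain Col1a1 at -6.84 ± 0.48 (probe set rc_AI231472_s_at, adjusted p = 7.7e-06) and fibronectin Fn1 at -3.74 ± 0.35 (U82612cds_g_at, adjusted p = 9.6e-05), both untreated. The one higher was Spp1, osteopontin, a secreted phosphoprotein that metalloproteinases cut, at 2.65 ± 0.40 untreated (adjusted p = 0.0023) and 2.04 ± 0.28 treated (adjusted p = 8.6e-04). With the drug 6 probe sets of this list fell and none rose in 208F (median -0.67), and 7 fell and 1 rose in FE8 (median 0.30). Of all probe sets, 1.60% fell and 3.59% rose in 208F, and 3.09% fell and 5.06% rose in FE8.

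Of plasminogen activators and cathepsins, which belong to the cascades that activate proenzymes, 11 of 14 listed genes were measured with 14 probe sets. Of these, 4 were higher in untreated and 6 in treated FE8 and none was lower, with medians of 0.60 and 0.76. Over all probe sets, 3.09% were higher in untreated and 3.42% in treated FE8. Serpinb2, which blocks urokinase and tissue plasminogen activator, differed by 3.72 ± 0.40 (adjusted p = 2.2e-04) and 3.54 ± 0.28 (adjusted p = 2.0e-05). With the drug 4 probe sets of this list were higher in 208F and 3 in FE8, among them the urokinase Plau by 1.89 ± 0.35 (adjusted p = 0.01) and 2.52 ± 0.35 (adjusted p = 0.0016). Of all probe sets, 3.59% rose in 208F and 5.06% in FE8.

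Other metzincins and their regulators were covered by 10 of 30 listed genes and 13 probe sets. Untreated, 1 was lower in FE8 and none was higher (median -0.23), and treated, 1 was higher and 2 were lower (median -0.05), beside 5.92% and 7.08% of all probe sets called. Pcsk6, a proprotein convertase, was lower in both, at -2.06 ± 0.47 (adjusted p = 0.024) and -2.38 ± 0.33 (adjusted p = 8.9e-04). Mmp23, a membrane-bound relative, was the only one called higher with the drug, in 208F by 2.76 ± 0.40 (adjusted p = 0.0024), from 23 to 607 and 453. In FE8 it read 19, then 109 and 152 (1.22 ± 0.40, adjusted p = 0.088).

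Profiles over the 6 arrays were compared by Pearson's r of log2 signal, as a description over points that are mostly set by the line. Among 415 probe sets of other genes that span at least 2 log2 units, those most like Mmp10 were Rnf130 (r = 0.997), Cdh17 (0.995) and Cd37 (0.995). Those most like Mmp3 were Rnf130 (0.998), Prkg2 (0.996) and Cd37 (0.995), and those most like Mmp13 were Prkg2 (0.992), Ercc1 (0.990) and Cdh17 (0.990). For Mmp2 they were Ltbp2 (0.993), Cald1 (0.987) and Fat1 (0.983), and for Timp2 they were Gas6 (0.989), Clu (0.983) and Fn1 (0.982). Ltbp2 read 561 without and 816 and 582 with the drug in 208F, and 16 without and 172 and 248 with it in FE8, so it was lowest where Mmp2 was lowest.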

How the data were processed

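Total RNA of 6 samples was measured on Affymetrix rat arrays, 1 sample per array. The authors deposited a linear signal intensity for each probe set, made with MAS5 per the submitters' processing notes, whose version and settings are not given in the sources used here. The table used here holds 4847 probe sets, of which 29 are controls. Probe sets were named from GEO's platform annotation (3956 with 1 gene, 207 with several, 655 with none), and 3942 of those with 1 gene were matched by gene identifier to the RefSeq table of GRCr8.

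Values were used as log2(intensity + 64), 64 being the 10th percentile of all values, with no further normalization. All 6 arrays entered a model of 4 group means in limma 3.58.1 (R 4.3.3; eBayes with trend; 2 residual and 9.02 prior degrees of freedom). Tests were 2-sided, with Benjamini-Hochberg adjustment over 4818 probe sets in each comparison and a threshold of 0.05. The code was tested on simulated data. Replicate numbers are shared by the treated groups only, and same-numbered deviations correlated at 0.319, over too few pairs to pair them.

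Members and lists were chosen with earlier results of these data known. All members were named. From each list up to 4 called genes per comparison could be named, in order of size, with other genes named where they neighbour a member or were fixed as cell type markers. Alternatives were other pseudocounts, a filter on mean signal, quantile normalization, median centring, no trend, a replicate block and leaving out each treated array.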

Additional observations from a re-analysis of the deposited data

How the results depend on the processing

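Of the 11 member probe sets, the number called was 5 untreated and 6 treated for the lines, 0 for the drug in 208F, 5 for the drug in FE8 and 0 for the difference between drug effects. Leaving out each treated array in turn gave 4 to 5, 4 to 8, 0, 0 to 6 and 0 to 2 in that order. The FE8 drug count was 3 after quantile normalization and 3 with a mean signal of at least 200, a filter that kept 8 of the 11 probe sets. With the replicate number of the treated arrays as a block the counts were 4, 7, 0, 6 and 0, and the call of Timp2 untreated was lost (adjusted p = 0.071), while Mmp13 in the FE8 drug effect (adjusted p = 0.049) and Timp1 by rc_AI169327_at in the treated lines (0.042) passed. Mmp3, Mmp10, Mmp13 and Mmp2 kept both line calls under each alternative.

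Signs turned only for estimates that did not pass. Leaving out each treated array in turn gave -0.07 to 0.67 for Mmp9 and -0.08 to 0.10 for Timp1 by rc_AI169327_g_at in the 208F drug effect, -0.04 to 0.09 for Mmp14 in the treated lines (-0.01 without 208F treated replicate 2), and -0.24 to 0.32 for Mmp10 in the difference between drug effects. After quantile normalization the 208F drug effect was -0.01 for Mmp9 and -0.10 for Mmp12, and the difference between drug effects was 0.08 for Mmp3. After median centring that Timp1 probe set was at -0.13 in the 208F drug effect, and with a pseudocount of 16 the Mmp10 difference between drug effects was -0.41. The cause was not tested.

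Over all probe sets, leaving out a treated array moved the counts of 285, 341, 250, 393 and 3 to between 109 and 541, 96 and 530, 75 and 663, 76 and 783, and 0 and 206. Quantile normalization gave 165 and 258 for the drug in 208F and FE8, and moved the median of all differences from 0.11 to -0.03 and from 0.08 to -0.04. The count of 3 became 10 with a pseudocount of 16, 6 with a larger one than 64, 9 after median centring and 0 with the filter, without the trend, with the block and after quantile normalization. Without a treated array, the spread came only from the treated duplicates of the other line, so counts from those fits also follow that change of spread. With 1 untreated array per line, no drug effect has a replicate on both sides.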
